A study of Mus musculus with 6 samples.

Results

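The genes encoding actin and 4 actin-binding proteins of the transgelin and calponin families were examined in MuSCs, the stem cells of skeletal muscle. They are taken by gene symbol, in a choice made with earlier results of these data known, and are the skeletal muscle actin Acta1, the cardiac actin Actc1, the smooth muscle actins Acta2 and Actg2, the cytoplasmic actins Actb and Actg1, the transgelins Tagln and Tagln2, and the calponins Cnn1 and Cnn2. All 10 are listed among the 18943 genes of the table, and 9 of them passed the filter of a mean value of at least 5, whereas Cnn1 did not. The study cultured FACS-purified MuSCs of wild-type (WT) C57BL/6 mice of 8 weeks for 5 days with a peptide ligand of a G protein-coupled receptor, either ET-3 (endothelin-3) or NT (neurotensin), or with DMSO, the solvent control, to ask how the ligands alter the state of the cells. RNA-seq was done on 2 libraries per group. No transgene or deletion is named in the labels, which give 100 nM for both ligands, while the methods text gives other and unequal doses. The study speaks of biological samples, but nothing ties these libraries to separate cultures or animals, so p-values measure the spread between these libraries, which may be technical.

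Actin monomers assemble into filaments, and the isoforms are closely alike in protein sequence. Cytoplasmic β- and γ-actin, encoded by Actb and Actg1, are made by nearly every cell. The striated actins form the thin filaments of sarcomeres, and Actc1 precedes Acta1 as the main sarcomeric actin when myoblasts differentiate into myotubes. Acta2 and Actg2 are named for smooth muscle, yet Acta2 is also transcribed in myofibroblasts and in cultured myoblasts. Transgelins and calponins share a calponin homology domain and bind actin filaments, with Tagln and Cnn1 being classical smooth muscle genes and Tagln2 and Cnn2 the more widely expressed relatives. Many of these genes are transcribed through SRF (serum response factor), which binds a motif called the CArG box. The MRTF coactivators of SRF bind monomeric actin and enter the nucleus when monomers are used up.

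The CArG box was searched for in RefSeq promoter windows of GRCm38.p6 because it is the element through which SRF binds these promoters. Each window runs from 250 bases before to 50 bases after the start of transcription. The box is CC, then 6 bases that are each A or T, then GG, and it reads as the same pattern on the opposite strand, so that 1 strand covers both. Windows were at hand for 7 members, Acta1, Actc1, Acta2, Actg1, Tagln2, Cnn1 and Cnn2. Exact boxes were found in 4 of these 7 windows, those of Acta1, Actc1, Actg1 and Cnn2. Among all 32851 promoter windows, 535 (1.63%) hold an exact box. The stretches of 30 bases around the exact boxes are shown 5′ to 3′ on the strand of the gene, with the box in capitals, so that the boxes of genes with different responses can be compared.
Acta1, chr8:123894829-123894858, minus strand: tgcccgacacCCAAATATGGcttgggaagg
Actc1, chr2:114052903-114052932, minus strand: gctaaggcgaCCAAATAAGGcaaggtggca
Actg1, chr11:120348566-120348595, minus strand: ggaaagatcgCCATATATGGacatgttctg
Cnn2, chr10:79988534-79988563, plus strand: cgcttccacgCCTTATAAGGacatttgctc
The boxes begin 73 bases before the RefSeq start in Acta1, 47 in Actc1, 90 in Actg1 and 56 in Cnn2. Gene positions given below come from GENCODE, where Actc1 and Acta2 start further upstream. The stretches shown for Actc1 and Acta2 therefore lie inside those gene positions. With 1 mismatch allowed, 5 of the 7 windows hold a match, Acta2 being added, beside 6936 (21.1%) of all windows. The matches of Acta2 and the near match of Actc1 that shares its letters are shown for comparison.
Acta2, chr19:34255438-34255467, minus strand: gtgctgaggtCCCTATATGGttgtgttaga
Acta2, chr19:34255388-34255417, minus strand: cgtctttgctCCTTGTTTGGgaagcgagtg
Actc1, chr2:114053031-114053060, minus strand: ctccctagctCCCTATATGGccattgctct
A match is a description of letters and not a bound site, and an exact box stood both in the window of Actc1, which fell most, and in that of Actg1, which did not pass the test under ET-3.

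The values are read counts that were multiplied by 1 factor per library and rounded, and are called values below. They summed to between 4214458 and 4600575 per library, corresponding to 3629074 to 5396233 reads when divided by the factors. The ET-3 libraries differed from each other by no more than sampling noise, and so did the NT libraries, their mean chi-square over genes being 0.894 and 0.967 where 1 is the value of counting noise alone. The DMSO libraries differed by more (1.43). Results are therefore also given with the 2 libraries of a ligand averaged to 1 sample. In that fit the spread comes from the 2 DMSO libraries alone, and the lone sample of each ligand is assumed to vary as they do. Cells were checked against markers: Pax7, the transcription factor of MuSCs, had values of 857 and 1070 (DMSO), 1754 and 1730 (ET-3) and 1653 and 1599 (NT). The list of 8 MuSC markers as a whole did not follow Pax7, its summed values being 7596 and 8185 with DMSO and 6691 to 7819 in the treated libraries. In it, the cadherin gene Cdh15 had 1547 and 1746 with DMSO and 436 to 496 with a ligand, and Calcr was at 0 to 3 throughout. Sdc4 and Vcam1 were higher with a ligand, at 556 and 502 against 715 to 815, and 378 and 306 against 475 to 573. Itga7 was lower, at 2427 and 2651 against 1851 to 2269. Myf5 had 506 and 466 against 400 to 483, and Myod1 1324 and 1444 against 1100 to 1539. The summed values of 6 differentiation markers were 11139 and 12347 with DMSO and between 198 and 278 in the 4 treated libraries.

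**Figure D1:**
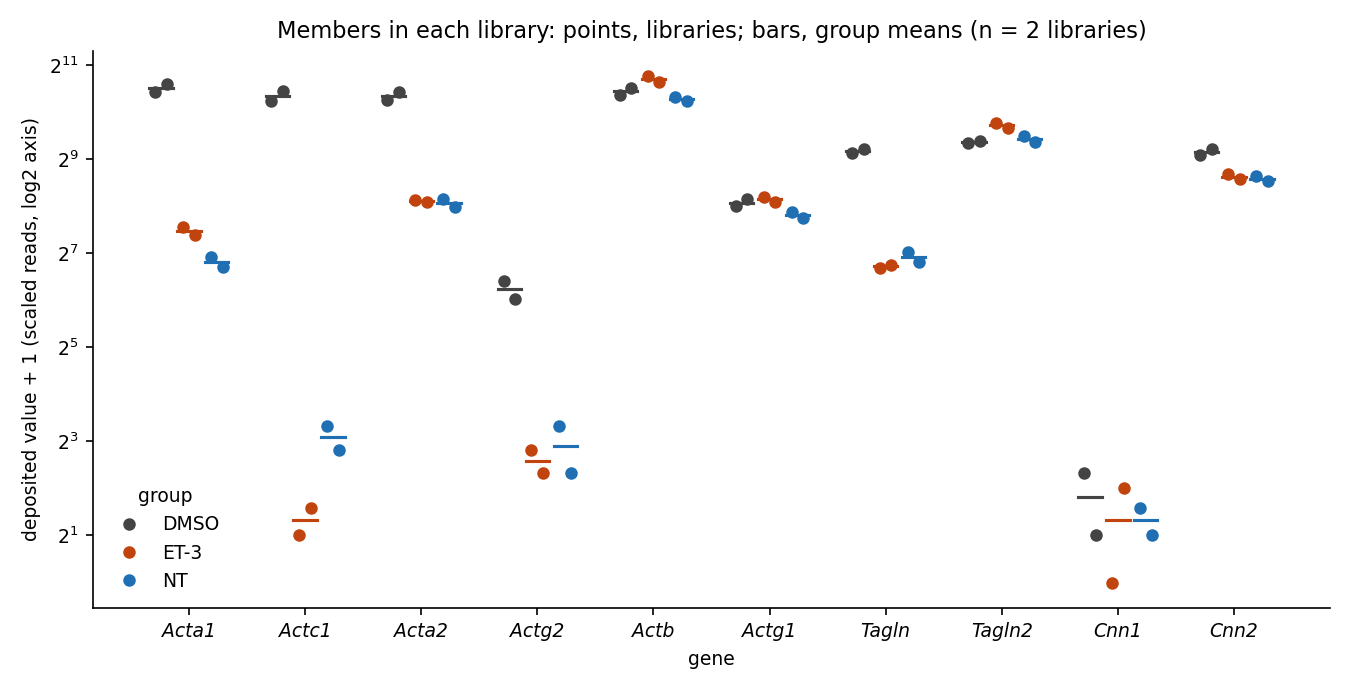
Values of the 10 members in each library, as value + 1 on a log2 axis, with a point per library and a bar at the mean of each group of 2 libraries. Acta1, Actc1, Acta2, Actg2 and Tagln lie far lower in the 4 treated libraries than with DMSO, while Actb, Actg1 and Tagln2 lie at similar heights in all groups and Cnn1 lies between 0 and 4 throughout.

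The muscle-type actins and Tagln were far lower with both ligands, whereas group means of the cytoplasmic actins and Tagln2 stayed within 1.28 times of DMSO. A gene was called when its adjusted p in limma was at most 0.05, after Benjamini-Hochberg adjustment over all 13921 tested genes, and its log2 fold change, on the scale of log2(value + 1), was at least 1 in size. Under ET-3, 5 of the 9 tested members were called lower and 0 higher, where 14.9% of all tested genes were called lower and 6.62% higher. Under NT, the count was again 5 lower and 0 higher, beside 13.2% lower and 7.3% higher among all tested genes. The members called were Acta1, Actc1, Acta2, Actg2 and Tagln in each comparison, and both comparisons share the 2 DMSO libraries. The median log2 fold change of the 9 tested members was -2.23 (ET-3) and -2.25 (NT), compared with -0.01 over all tested genes in each. With each treated pair averaged the 5 members were called again, with adjusted p from limma between 0.0217 and 0.0296 under ET-3 and between 0.0242 and 0.0335 under NT, beside 12.4% and 10.9% of genes called lower and 3.26% and 3.43% called higher. In bulk RNA, fewer differentiating cells and less of these transcripts per cell cannot be told apart.

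Acta1 encodes the actin of adult skeletal muscle thin filaments and lies at chr8:123891769-123894751 on the minus strand of GRCm38. Its values were 1370 and 1538 (DMSO), 188 and 166 (ET-3) and 119 and 103 (NT). The 3 groups did not overlap, DMSO being highest and NT lowest. The fall was -3.03 on the log2 scale under ET-3 (SE 0.09, limma adjusted p = 4.26e-09), and -3.70 under NT (SE 0.09, adjusted p = 2.60e-09), which are ratios of group means of 8.21 and 13.1.

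Actc1, the actin of cardiac muscle and of newly differentiating skeletal muscle (chr2:114047282-114053548, minus strand), fell most among the members. It had values of 1202 and 1392 (DMSO), 1 and 2 (ET-3) and 9 and 6 (NT). Every treated library had a value of 9 or less, and every DMSO library was above 1000. Since only 3 reads are estimated in the ET-3 libraries together, the ratio of DMSO to ET-3 was 755 with an exact 95% counting interval from 258 to 3662. The ratio to NT, with 19 reads, was 166 (interval 106 to 277). Such intervals cover counting error only. The fitted log2 fold changes of -9.05 (SE 0.29, limma adjusted p = 5.16e-09) and -7.27 (SE 0.29, adjusted p = 2.19e-08) depend on the pseudocount at these low values, and with a pseudocount of 5 they were -7.65 and -6.71.

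The smooth muscle actin Acta2 (chr19:34241090-34255590, minus strand) fell by a similar factor under both ligands. Values were 1216 and 1382 (DMSO), 280 and 272 (ET-3) and 281 and 251 (NT), so that the ET-3 and NT libraries overlapped while both stayed below DMSO. Limma gave a log2 fold change of -2.23 for ET-3 (SE 0.08, limma adjusted p = 7.21e-09) and -2.28 under NT (SE 0.08, adjusted p = 7.11e-09), or 4.71 and 4.88 times between group means. Unlike Actc1, Acta2 thus kept values above 250 in every treated library.

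Actg2, the actin of visceral smooth muscle (chr6:83512905-83536265, minus strand), was the least abundant of the actins with DMSO. Its values were 84 and 64 (DMSO), 6 and 4 (ET-3) and 9 and 4 (NT). The treated groups overlapped with each other and not with DMSO. Its fall was -3.65 on the log2 scale for ET-3 (SE 0.40, limma adjusted p = 2.21e-05) and -3.39 for NT (SE 0.40, adjusted p = 3.93e-05), and the ratio of DMSO to treated reads was 14.5 (95% counting interval 7.45 to 32.5) and 11.4 (6.79 to 20.5).

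Actb, which encodes β-actin (chr5:142903115-142906754, minus strand), did not reach a 2-fold change in either direction. Values were 1323 and 1448 (DMSO), 1736 and 1594 (ET-3) and 1283 and 1210 (NT). ET-3 libraries were above and NT libraries below those with DMSO. Limma gave a log2 fold change of 0.27 for ET-3 (SE 0.06, limma adjusted p = 0.00297) and -0.15 under NT (SE 0.06, adjusted p = 0.0481). Neither held in every fit: with each treated pair averaged the adjusted p were 0.132 and 0.278, the rise under ET-3 also lost the test without the first DMSO library (0.20, adjusted p = 0.0734) or without the first ET-3 library (0.20, adjusted p = 0.0633), and the change under NT lost it under every omission of a library and was 0.03 once a trend with value per exonic base was removed. Actb is often used as a reference gene, and between the 6 libraries its values spanned 1210 to 1736.

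Actg1 encodes γ-actin (chr11:120345690-120348542, minus strand). It had values of 254 and 283 (DMSO), 292 and 270 (ET-3) and 233 and 215 (NT). DMSO and ET-3 libraries overlapped, and the NT libraries were lowest. Limma gave a log2 fold change of 0.07 for ET-3 (95% interval -0.12 to 0.25, limma adjusted p = 0.502) and -0.26 under NT (SE 0.08, adjusted p = 0.0187). The latter missed the test without the second DMSO library (-0.18, adjusted p = 0.147), without the second NT library (-0.20, adjusted p = 0.152), with library totals as scaling (-0.15, adjusted p = 0.130) and with the treated pairs averaged (-0.26, adjusted p = 0.186).

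Some reads of the actins could not be placed, and how many were lost was not measured. The authors left out reads that aligned to several regions, and the actin genes are alike: coding sequences of the 6 actins were 81.5% to 88.7% identical, with Actb and Actg1 the closest. Of the 75-base windows of the main Actg1 transcript, 45.5% occurred once among annotated mouse transcripts, and within its coding part 2.94% did. Pseudogenes share the rest, chiefly Gm12715 with 898 windows and Gm8399 with 502. Those pseudogenes had values of 4 to 15 and 4 to 11 over the 6 libraries, so few reads were listed under them. Actb had 97.4% of such windows unique, Acta1 99.6%, and Actc1, Acta2 and Actg2 100%. Tagln, which shares exonic sequence with overlapping genes, had 59.1% in its main transcript, and over all transcripts 926 of its 1983 windows were unique as against 2035 of 3058 for Actg1. These windows are the same for every library and bear on levels between genes.

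Divided by exonic length, the order of the members changed between groups. In the DMSO libraries Acta1 stood highest with 892 and 1001 per exonic kilobase, followed by Actc1 (743 and 860), Acta2 (554 and 629), Actb (494 and 541), Tagln2 (309 and 321), Tagln (281 and 296), Cnn2 (220 and 239), Actg1 (95.6 and 106), Actg2 (53.9 and 41.1) and Cnn1 (1.46 and 0.365), and no neighbours in this order overlapped. With ET-3, Actb was highest (648 and 595 per exonic kilobase), and Tagln2, Cnn2 and Acta2 came next. Acta1 (122 and 108) and Actg1 (110 and 102) overlapped there, and so did Actc1 (0.618 and 1.24) and Cnn1 (0 and 1.10). With NT, Actb led again (479 and 452), before Tagln2, Cnn2, Acta2, Actg1, Acta1 and Tagln, while Actc1 (5.56 and 3.71) and Actg2 (5.78 and 2.57) overlapped. Counted per 1000 unique windows in place of exonic bases, the DMSO order changed too. Actb (736 and 805) then stood above Acta2 (620 and 705), which overlapped with Tagln (621 and 655). Tagln stood above Tagln2 (426 and 442), and Actg1 (297 and 331) above Cnn2 (226 and 246). With ET-3, Actg1 moved from the sixth to the third place in that count, at 342 and 316.

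As shares of the 6 actins per exonic kilobase, muscle-type and cytoplasmic actin exchanged places. Striated and smooth muscle actins together held 79.4% ± 0.326 (SD, n = 2) with DMSO, as against 25.2% ± 0.110 (ET-3) and 26.9% ± 1.15 (NT). Striated actin alone held 57.7% and 58.6% in the DMSO libraries, 12.2% and 11.7% (ET-3) and 10.6% and 9.83% (NT). Smooth muscle actin went from 21.5% and 21.1% to 13.3% ± 0.413 with ET-3 and to 16.7% ± 0.598 with NT. The share of Actb was 17.2% ± 0.309 (DMSO), 63.9% ± 0.140 (ET-3) and 61.9% ± 1.12 (NT). These shares moved while the cytoplasmic values hardly did: the summed actin value per exonic kilobase was 2832 and 3179 (DMSO), 1012 and 932 (ET-3) and 783 and 720 (NT). The shares are given as a description, without a test. They take values as proportional to transcript levels, and whether this holds for abundant genes such as Actb and Acta1 was not tested. With other lengths the muscle-type share lay between 71.4% and 75.003% with DMSO and between 18.0% and 22.1% with a ligand.

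**Figure D2:**
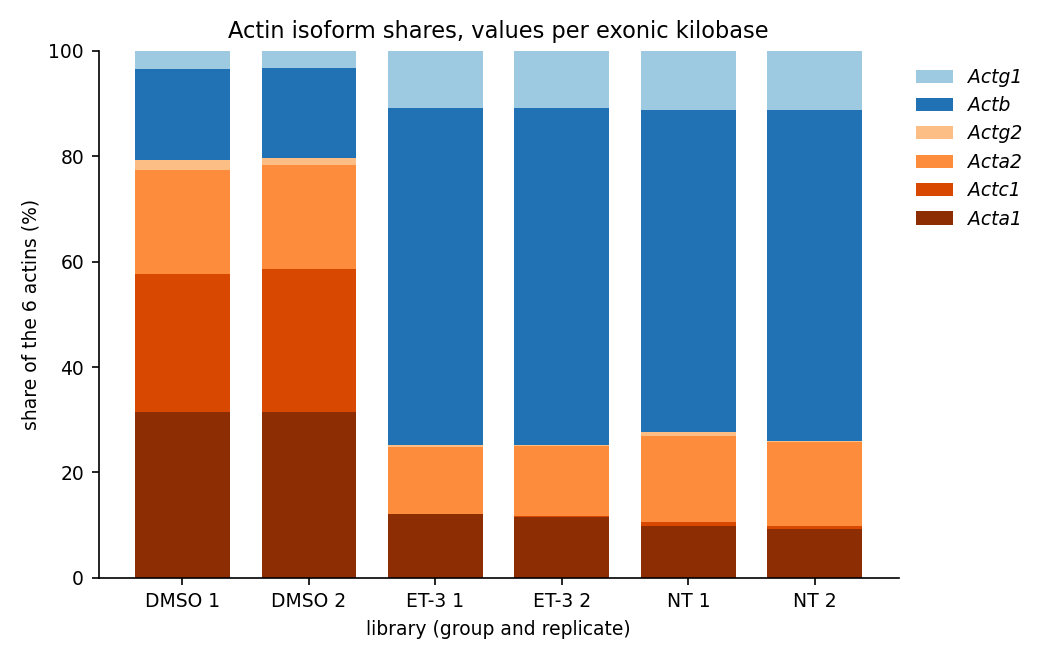
Share of each actin gene in the summed value per exonic kilobase of the 6 actins, as stacked bars from 0 to 100% with a bar per library. Striated (Acta1, Actc1) and smooth muscle (Acta2, Actg2) actins fill 79.2% and 79.6% of the DMSO bars and 25.1% to 27.7% of the treated bars, where Actb takes 61.1% to 64.0%.

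Among the actin binders, Tagln was the single member called. It encodes transgelin, also known as SM22α (chr9:45929619-45936058, minus strand). Values were 558 and 589 (DMSO), 102 and 107 (ET-3) and 130 and 111 (NT), the treated libraries all lying far below DMSO. Limma gave a log2 fold change of -2.44 for ET-3 (SE 0.09, limma adjusted p = 1.68e-08) and -2.25 under NT (SE 0.09, adjusted p = 3.23e-08). The antisense gene Gm48529 overlaps 1241 of its exonic bases, and without strand its reads cannot be told apart from those of Tagln. Gm48529 had 52 and 48 (DMSO), 18 and 14 (ET-3) and 27 and 26 (NT). Since reads over several genes were left out, the level of Tagln rests on the part of its exons that is free of overlap.

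Tagln2, the transgelin of non-muscle cells (chr1:172500047-172507380, plus strand), went the other way under ET-3. It had values of 644 and 669 (DMSO), 869 and 808 (ET-3) and 722 and 660 (NT). ET-3 libraries stood above both other groups, and NT and DMSO libraries overlapped. The rise under ET-3 was 0.35 on the log2 scale (SE 0.06, limma adjusted p = 0.000453), and the log2 fold change under NT was 0.07 (95% interval -0.06 to 0.20, adjusted p = 0.307). With each treated pair averaged the adjusted p under ET-3 was 0.05002. Under NT the change passed the test with library totals as scaling (0.19, adjusted p = 0.0120), a scaling that shifted the median of all genes by 0.11 on the log2 scale, and after removal of the trend with value per exonic base (0.19, adjusted p = 0.00257). Coding sequences of Tagln and Tagln2 were 69.1% identical and shared no 75-base window.

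Cnn2, the calponin of non-muscle and smooth muscle cells (chr10:79988584-79996062, plus strand), fell by less than 2-fold under both ligands. Values were 540 and 588 (DMSO), 410 and 378 (ET-3) and 395 and 370 (NT). Treated libraries overlapped with each other and lay below both DMSO libraries. The decrease was -0.52 on the log2 scale for ET-3 (SE 0.07, limma adjusted p = 7.72e-05) and -0.56 under NT (SE 0.07, adjusted p = 4.68e-05), with adjusted p of 0.0574 and 0.0558 when the treated pairs were averaged. Cnn1, the calponin of differentiated smooth muscle (chr9:22099216-22109630, plus strand), had values of 4 and 1, 0 and 3, and 2 and 1 with DMSO, ET-3 and NT. At 3 to 5 estimated reads per group no difference was detectable. Counting adjusted p alone without the 2-fold threshold, 6 members were lower and 2 higher under ET-3, where 33.2% and 30.6% of all tested genes were, and 8 lower and 0 higher under NT, where 32.5% and 29.7% were.

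**Figure D3:**
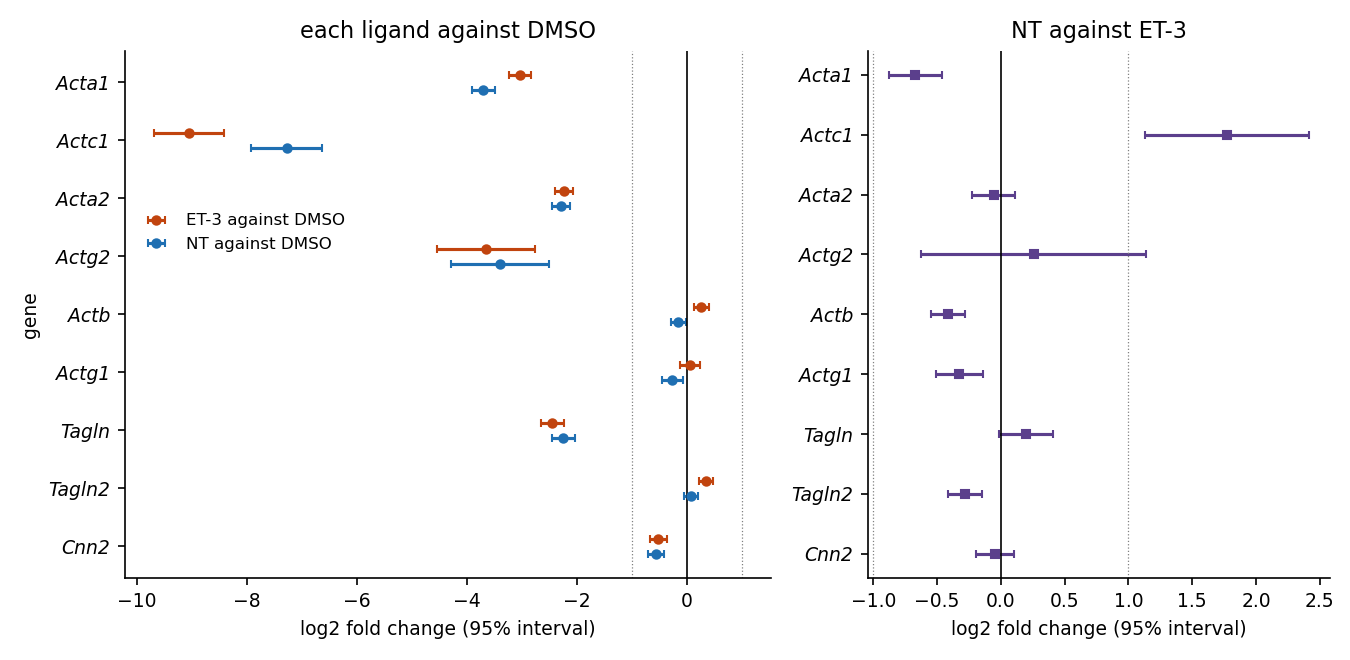
Log2 fold changes of the 9 tested members with 95% intervals from limma, for each ligand against DMSO on the left and NT against ET-3 on the right, with dotted lines at a 2-fold change. Acta1, Actc1, Acta2, Actg2 and Tagln lie left of -1 under both ligands, and Actc1 alone lies right of 1 in the comparison of the ligands.

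The ligands were then compared with each other. Actc1 was the single member called, being higher with NT by 1.77 on the log2 scale (SE 0.29, limma adjusted p = 0.0379), and 0 members were called lower, beside 0.0503% of genes called higher and 0.0287% lower. On reads, 19 with NT and 3 with ET-3 gave a ratio of 4.54 (95% counting interval 1.34 to 23.9). A further 3 members passed the test with less than a 2-fold change and were lower with NT. These were Acta1 (-0.67, SE 0.09, adjusted p = 0.0379), Actb (-0.42, SE 0.06, adjusted p = 0.0379) and Tagln2 (-0.28, SE 0.06, adjusted p = 0.0432), where 2.05% of genes passed as lower and 0.647% as higher. None of the 4 passed when any single library was left out, including a DMSO library. In each of those fits Acta1, Actc1 and Actb shared the same adjusted p, which therefore does not rank them. Their log2 differences lay between -0.77 and -0.57, 1.48 and 2.06, and -0.48 and -0.36, and that of Tagln2 between -0.34 and -0.21. Actg1 missed the test at -0.33 (95% interval -0.51 to -0.14, adjusted p = 0.0667), as did Tagln (0.20, interval -0.01 to 0.41), Acta2 (-0.06, interval -0.22 to 0.11), Actg2 (0.26, interval -0.63 to 1.14) and Cnn2 (-0.04, interval -0.19 to 0.11).

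The difference between NT and ET-3 varied over all genes with the value per exonic base. This value reached 0.746 at most over 18920 genes of known length, with a median of 0.0206, and Actb held the 14th place at 0.535. Among the 126 genes within 1.5 times the value per base of Actb, the median log2 difference was -0.28 and 80% lay between -0.36 and -0.19. For the 518 genes like Tagln2 the median was -0.21, with 80% between -0.31 and -0.11. Of these like genes, 0.794% lay lower than Actb and 21.4% lower than Tagln2. With the trend removed the differences of Actb and Tagln2 were -0.11 (limma adjusted p = 0.220) and -0.05 (adjusted p = 0.710). Genes at the height of Acta1 did not share its difference, 80% of the 3364 lying between -0.14 and 0.13, and of those at the height of Actc1, 80% of the 941 lay between -0.44 and 0.68. With the trend removed, Acta1 was at -0.42 (adjusted p = 0.0624) and Actc1 at 1.96 (adjusted p = 0.0394). Whether duplicate reads had been removed is not stated, and its part in this trend was not tested.

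**Figure D4:**
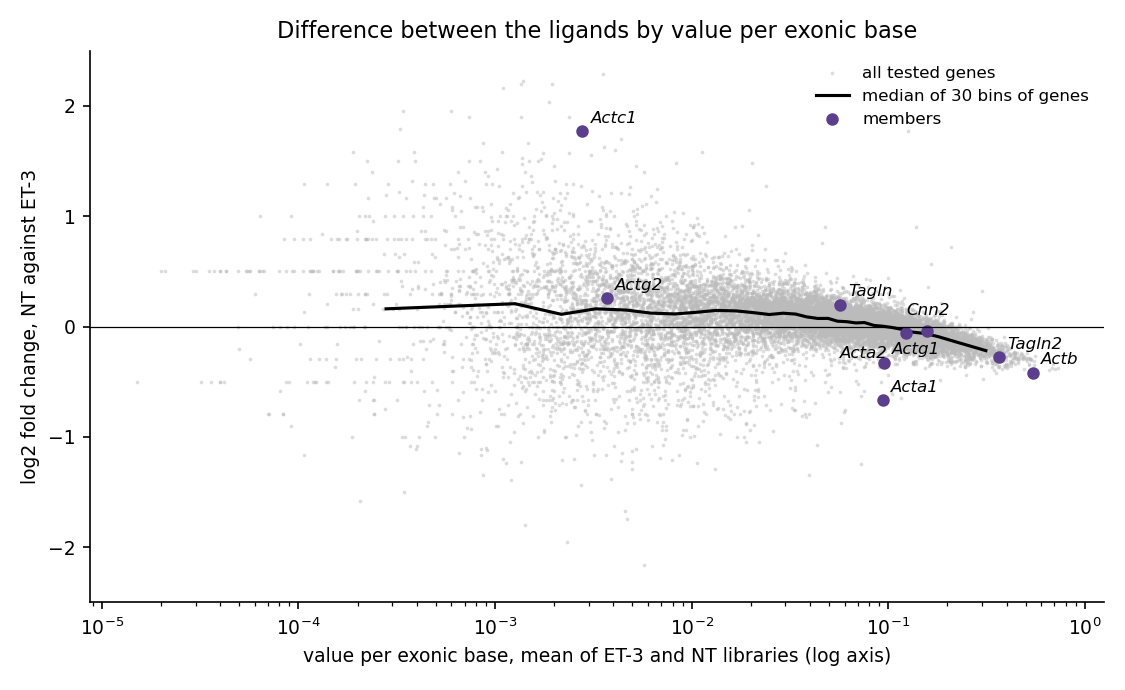
Log2 fold change of NT against ET-3 for the tested genes of known length (grey points, 1 of 13914 genes lying outside the axis) against value per exonic base on a log axis, with the median of 30 bins of genes as a black line and the 9 tested members in purple. The black line falls to the right, with Actb (-0.42) below it there and Tagln2 (-0.28) nearer to it, while Acta1 (-0.67), Actg1 (-0.33) and Actc1 (1.77) lie away from it.

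Other genes of the actin and SRF system were taken from lists chosen with earlier results of these data known. Among 9 SRF and MRTF regulators, Myocd was called lower under both ligands, and Elk3 higher under NT. Of all tested genes, 14.9% (ET-3) and 13.2% (NT) were called lower, and 6.62% and 7.3% higher. Srf itself was at 579 and 628 (DMSO), 617 and 566 (ET-3) and 609 and 572 (NT), with a log2 fold change of -0.03 under each ligand (limma adjusted p = 0.708 and 0.691). Mrtfa was at 430 in each DMSO library, 618 and 599 (ET-3) and 597 and 615 (NT), and rose by 0.50 and 0.49 on the log2 scale (SE 0.05 in each). Mrtfb, with 501 and 504, 416 and 448, and 456 and 472, fell by 0.22 under ET-3 (adjusted p = 0.00622) and was at -0.12 under NT (adjusted p = 0.0986). Myocd, the SRF coactivator of cardiac and smooth muscle, had 23 and 15 (DMSO), 4 and 1 (ET-3) and 4 and 7 (NT), and with the treated pairs averaged its call was lost. Elk3, an ETS partner of SRF, had 387 and 386 (DMSO), 779 and 769 (ET-3) and 776 and 779 (NT), at 1.00 and 1.01 on the log2 scale, on either side of the threshold.

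Of 26 tested SRF target genes other than the members, 5 were called lower and 0 higher under each ligand, where 14.9% (ET-3) and 13.2% (NT) of all tested genes were called lower. Their median log2 fold changes were -0.14 and -0.30. Lmod1, a leiomodin that nucleates filaments in smooth muscle, was at 91 and 110 with DMSO, at 0 in both ET-3 libraries, and at 1 and 0 with NT. Tpm2, a muscle tropomyosin, had 1675 and 1853 (DMSO), 556 and 543 (ET-3) and 560 and 494 (NT), a log2 fold change of -1.68 and -1.74. Myl9, Fhl1 and Ccn2 were the other three called. With adjusted p alone, 13 were lower and 5 higher under ET-3, beside 33.2% and 30.6% of all genes. Under NT, 16 were lower and 1 higher, beside 32.5% and 29.7%. The 5 that were higher under ET-3, all by less than 2-fold, were Tpm4, Flna, Actn1, Myh9 and Ankrd1, and of these Myh9 passed the test as lower under NT (-0.14, limma adjusted p = 0.0276).

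The striated thin filament list had the lowest medians of these lists. Of its 17 genes 13 were called lower and 0 higher under each ligand, with median log2 fold changes of -3.35 and -3.26. Among all tested genes, 14.9% (ET-3) and 13.2% (NT) were called lower, and 6.62% and 7.3% higher. Tnnc2, the troponin C of fast muscle, had 489 and 535 (DMSO), 0 and 1 (ET-3) and 2 and 1 (NT). Lmod2, a leiomodin of striated muscle, had 645 and 690 (DMSO), 5 and 5 (ET-3) and 5 and 2 (NT). Acta1 and Actc1 fell beside these partners of the sarcomere.

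Genes for monomer binding, folding and filament turnover changed in both directions. Of 37 tested, 4 were called lower and 1 higher under each ligand, the medians being 0.17 (ET-3) and -0.05 (NT) on the log2 scale. Among all tested genes, 14.9% (ET-3) and 13.2% (NT) were called lower, and 6.62% and 7.3% higher. With adjusted p alone, 9 were lower and 19 higher under ET-3, beside 33.2% and 30.6% of all tested genes. Under NT, 13 were lower and 7 higher, beside 32.5% and 29.7%. The capping protein gene Capg was at 199 and 198 (DMSO), 540 and 518 (ET-3) and 450 and 452 (NT), a log2 fold change of 1.41 and 1.18. Tmod1, which caps pointed ends in sarcomeres, was at 469 and 485 (DMSO), 8 and 4 (ET-3) and 6 and 4 (NT). Cap2, a monomer-binding protein of striated muscle, was at 906 and 925 (DMSO), 278 and 280 (ET-3) and 277 and 294 (NT), a log2 fold change of -1.71 and -1.68. Gsn and Twf2 were the other two called lower. Among 11 tested relatives of the actin, transgelin and calponin families, 0 were called in limma under either ligand. With adjusted p alone, 1 relative was lower and 5 higher under ET-3, where 33.2% and 30.6% of all tested genes were. Under NT, 3 relatives were lower and 3 higher, where 32.5% and 29.7% were. Cnn3, the third calponin, was at 1166 and 1283 (DMSO), 977 and 935 (ET-3) and 845 and 786 (NT), a fall by 0.36 and 0.59 on the log2 scale. Tagln3 had values of 1 to 7 and was not tested.

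**Figure D5:**
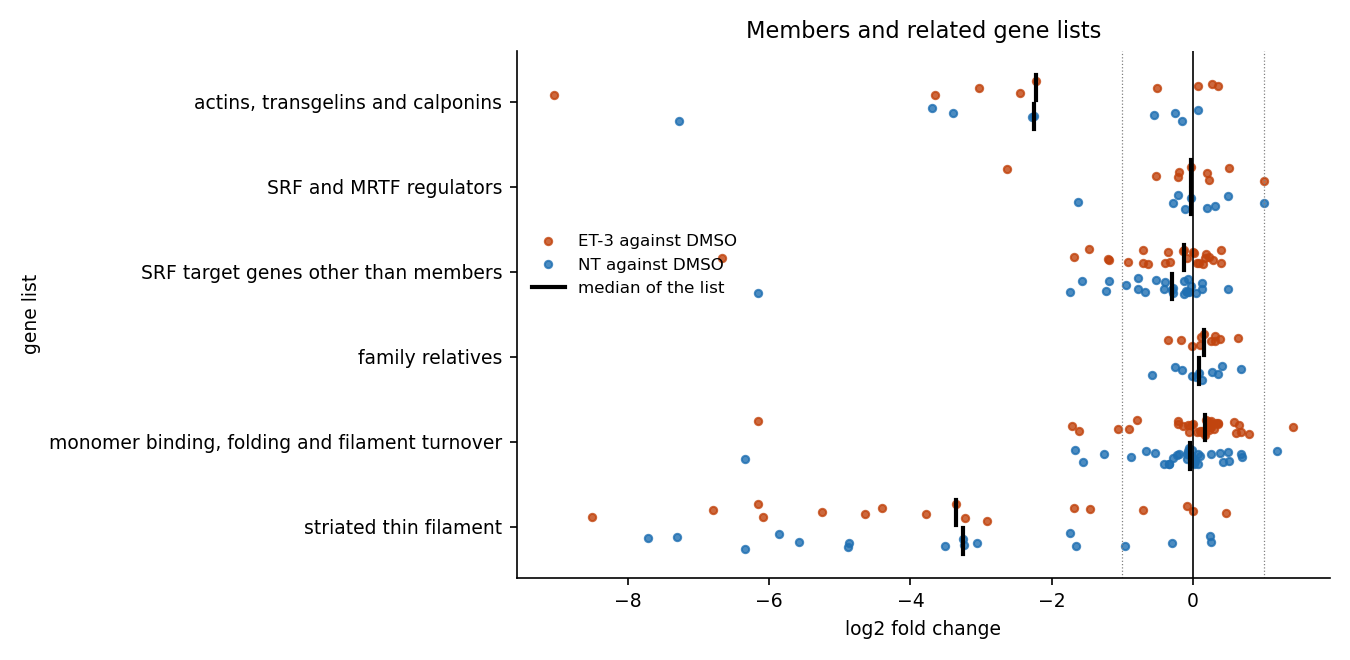
Log2 fold changes of the 9 tested members and of the tested genes of 5 related lists, with a point per gene for ET-3 against DMSO (orange) and NT against DMSO (blue), a black bar at each median and dotted lines at a 2-fold change. Medians lie at -2.23 and -2.25 for the members, at -3.35 and -3.26 for the striated thin filament, and within 0.30 of 0 for the other lists; Tmod1, Tmod4, Tpm1, Tpm2 are in 2 lists each.

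The genes with the profile most like that of each tested member were searched over the 6 libraries among 10201 genes whose mean value reached 50, by the root mean square difference of log2(value + 1) profiles centred on their own mean. These are descriptions over 6 libraries that share groups, and differences ranged from 0.0168 to 0.405. Closest to Acta1 were Nmrk2, a nicotinamide riboside kinase of muscle (0.169), and Bex1 (0.190). Among the 2 nearest to Actc1 was Mymx, the gene of the fusion peptide myomixer (0.405). Acta2 was matched by Apbb1 (0.0448) and Obsl1 (0.0525), and Tagln by the anion exchanger gene Slc4a3 (0.0510) and Lman1l (0.0514). For Actg2 these were the myogenic regulator Myf6 (0.246) and the fast myosin light chain gene Mylpf (0.262).

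The other 4 tested members did not reach a 2-fold difference from DMSO. Actb was nearest to Rplp0, a ribosomal protein gene (0.0255), with values of 584 and 647, 752 and 707, and 588 and 546, and to Ybx1 (0.0335). Actg1 lay nearest to the cathepsin D gene Ctsd (0.0168) and Gm15772 (0.0193). Tagln2 was closest to Fscn1, which encodes the filament bundler fascin (0.0185), and to Lrrc59 (0.0197), and Cnn2 to App (0.0204) and Thop1 (0.0319).

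Markers of other cell types moved as well, and their part in the fall of Acta2, Actg2, Tagln and Cnn2 was not tested. The summed values of 9 smooth muscle and pericyte markers were 3520 and 3973 with DMSO and 812 to 1005 in the treated libraries. Of the 7 tested, 6 were called lower under each ligand, beside 14.9% (ET-3) and 13.2% (NT) of all tested genes. In this list, the smooth muscle myosin Myh11 was at 0 to 4 and Kcnj8 at 0 to 2 in all 6 libraries. The pericyte genes Pdgfrb and Rgs5 went from 227 and 278, and 117 and 150, to 13 or less. Abcc9 went from 851 and 835 to between 0 and 4, and Lmod1 from 91 and 110 to 0 or 1. Notch3 went from 1397 and 1773 to between 284 and 409, and Mcam from 222 and 213 to between 60 and 80. Cspg4 changed least of the tested ones, from 610 and 612 to between 433 and 509. For fibroadipogenic cells, 5 of 8 markers were analysed, and their sum was 1624 and 1788 with DMSO and 992 to 1151 with a ligand, almost all of it Col3a1. Col1a1 went from 148 and 146 to between 2 and 8, and Dcn from 9 and 17 to between 0 and 2. Pdgfra had 20 and 30 with DMSO and 26 to 44 with a ligand, and Ly6a 27 and 18 against 37 to 52. Endothelial markers (6 of 8 analysed) summed to 64 in each DMSO library and 98 to 130 in the treated ones. Tek rose most, with 2 and 1 against 42 to 70. Kdr had 16 and 6 against 23 to 26, Pecam1 6 and 3 against 7 to 15, and Cdh5 0 and 2 against 2 to 5. Esam stayed at 0 to 2, while Vwf had 38 and 52 against 13 to 26. Of the 4 tested, 2 (ET-3) and 3 (NT) were called higher, beside 6.62% and 7.3% of all tested genes. Under each ligand 1 was called lower, beside 14.9% and 13.2%. Macrophage markers (3 of 7) summed to 25 and 32 against 51 to 77, of which Cd14 had 4 and 5 against 24 to 34 and Csf1r 6 and 13 against 4 or 5, and Schwann cell markers (3 of 5) to 67 in each against 32 to 69.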

How the data were processed

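RNA-seq libraries of MuSCs (2 each with DMSO, ET-3 and NT) were analysed from 1 deposited table. The deposited values are a read signal, not raw counts: the authors aligned reads to mm10 (GRCm38), counted them on exons, leaving out reads of several genes or of several genomic places, and the values equal counts multiplied by 1 factor per library (0.781 to 1.19) and rounded, a scaling the text does not describe. The submitters' processing notes name Trimmomatic 0.38, STAR 2.7.7a, featureCounts 1.6.5 and DESeq2 1.30.0, and the labels a SMART-Seq HT kit, which does not mark strand, whereas the paper's methods name other versions, trimming and a stranded kit. Removal of duplicates is not given in the sources used here. The series text speaks of triplicates, and 2 libraries per group were used here.

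Members and gene lists were chosen with earlier results of these data known. limma 3.58.1 (R 4.3.3; lmFit, eBayes with trend) was fitted to log2(value + 1) of the 13921 genes with a mean of at least 5, all 6 libraries in 1 fit, with Benjamini-Hochberg adjustment. Counting intervals are exact (Clopper-Pearson) at 95%. Exonic lengths and positions came from GENCODE M21, matched by identifier for 18920 genes. Genes named besides the members are the 2 nearest profiles of each, the 2 largest rises and falls of each list among genes called under both ligands, and Srf, Mrtfa, Mrtfb and Myocd. Outside this rule, Elk3, Cnn3, Tagln3, further called list genes and the markers printed were named after their values were seen. Alternatives were the filter, the scaling, the pseudocount, voom weights, a replicate block, fits of 2 groups, averaged treated pairs, each library left out, other lengths, and, added after the data were seen, removal of a trend with value per exonic base. Python 3.11.15 prepared tables and plots. Of the genes with the nearest profiles, 1 is not reported here.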

Additional observations from a re-analysis of the deposited data

Results flagged for a closer look

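Under the direct comparison of the ligands, 4 members passed the test of the difference between NT and ET-3 in limma. Among all tested genes, 2.05% passed as lower and 0.647% as higher. Actc1 was higher with NT by 1.77 on the log2 scale, at values of 9 and 6 against 1 and 2. Acta1 differed by -0.67, Actb by -0.42 and Tagln2 by -0.28, all 3 being lower with NT. Their adjusted p lay between 0.0379 and 0.0432 in the fit of all 6 libraries, and none of them passed with any library left out. The directions of the differences held in those fits.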

How the results depend on the processing

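The falls of Acta1, Actc1, Acta2, Actg2 and Tagln passed the test with at least a 2-fold change in all 170 fits of the 17 alternatives under both ligands, with adjusted p up to 0.0335. The numbers of members called against DMSO held at 5 lower and 0 higher in each of these fits. In the fit as reported, 14.9% (ET-3) and 13.2% (NT) of all tested genes were called lower, and 6.62% and 7.3% higher. With adjusted p alone, 2 members were higher under ET-3, 8 lower under NT, and 3 lower in NT against ET-3. The shares of all tested genes beside these counts were 30.6%, 32.5% and 2.05%. In NT against ET-3, the 1 member called higher became 0 without a filter, with a pseudocount of 5, with voom weights, with only the 2 groups, where the filter removed Actc1, with averaged treated pairs, where 1 sample per ligand left 0 genes called in this comparison, and with any library left out (0 to 0). With a replicate block it was 0 too: adjusted p of the 4 members past the test were 0.0691 to 0.0731, and the block also took the change of Actb under NT to 0.0645, while it changed no other call of a member. Deviations of same-numbered libraries correlated at -0.07 to -0.01 between groups. The ET-3 and NT pairs differed by no more than counting noise, so this cannot show whether the numbers pair the libraries.

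Removing the trend with value per exonic base, an alternative chosen after seeing the data, turned Actb under NT to 0.035, and Acta2 and Cnn2 in NT against ET-3 to 0.14 and 0.071, none past the test. Leaving out libraries moved Actg1 under ET-3 between -0.011 and 0.14, and in NT against ET-3 Acta2 between -0.14 and 0.026, Actg2 between -0.24 and 0.76 and Cnn2 between -0.10 and 0.016. The muscle-type share of actin was 75.003%, 20.6% and 22.1% (DMSO, ET-3, NT) with the longest transcript as length, 71.4%, 18.0% and 19.2% with unique windows, and 71.4%, 19.1% and 20.98% without length. CArG boxes stood in 4 of 7 windows, and in 5 with a mismatch. The depth does not resolve Cnn1, and 3 reads set the level of Actc1 with ET-3.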
